A study of Mus musculus with 6 samples.

Results

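Transcripts of 7 genes that sense nucleic acid in the cytosol, or relay that signal, were followed in healthy stem and progenitor cells of mice with and without leukemia. The genes, Ddx58, Ifih1, Dhx58, Eif2ak2, Zbp1, Cgas and Mavs, were chosen by symbol from the 32285 genes of the count matrices, and all 7 were present under 1 Ensembl identifier each. The mice were non-conditioned female C57BL/6J animals carrying CD45.1, aged 8 to 12 weeks. The AML group received 1000000 C1498 cells, a murine acute myeloid leukemia line carrying CD45.2, and the PBS group received PBS. Both groups were sacrificed at day 21, and bone marrow cells that were lineage-negative, cKit-positive and Sca1-positive (LSK) were sorted by CD45.1, the marker of the host. There were 3 PBS and 3 AML libraries. The authors' cell table, which gives each cell a class (HSC, MPP2, MPP3 or MPP4), a cluster from 0 to 8 and a cell cycle phase, lists 16822 cells from 5 of these libraries. AML replicate 2 has no cell in it, so that the comparisons set 3 PBS libraries against 2 AML libraries.

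Foreign or misplaced nucleic acid in the cytosol is recognized by several receptor families. RIG-I (encoded by Ddx58) and MDA5 (Ifih1) are helicases that bind double-stranded RNA and signal through the mitochondrial adaptor MAVS to type I interferon, while LGP2 (Dhx58) belongs to the same helicase family but lacks the signaling domains and modulates the other two. cGAS (Cgas) binds double-stranded DNA and makes the messenger cGAMP, which activates STING. ZBP1 binds left-handed Z-form nucleic acid and can trigger necroptosis through RIPK3, and PKR (Eif2ak2) is a kinase that, on binding double-stranded RNA, phosphorylates eIF2 alpha and slows translation. Several of these genes are themselves induced by interferon, and interferon is known to push quiescent hematopoietic stem cells into cycle.

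In the GENCODE M21 annotation of GRCm38, the build named in the submitters' processing notes, Ddx58 (ENSMUSG00000040296) lies at chr4:40203773-40239828 on the minus strand. Ifih1 (ENSMUSG00000026896) lies at chr2:62595798-62646255 on the minus strand and Dhx58 (ENSMUSG00000017830) at chr11:100694884-100704271 on the minus strand. Mavs (ENSMUSG00000037523) lies at chr2:131234063-131248025 on the plus strand. Cgas (ENSMUSG00000032344) lies at chr9:78430526-78443237, Zbp1 (ENSMUSG00000027514) at chr2:173206612-173218923 and Eif2ak2 (ENSMUSG00000024079) at chr17:78852564-78882573, all on the minus strand. Dhx58 overlaps an antisense gene (Dhx58os), Eif2ak2 overlaps an rRNA gene and a lincRNA, and Cgas overlaps a processed pseudogene, in each case on the opposite strand. No annotated gene overlaps the other 4.

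RefSeq promoter windows (GRCm38.p6, 250 bases before to 50 after the start) were at hand for 5 of the 7 genes. They are shown for 3 genes whose windows hold a GAAA repeat of the kind bound by interferon-activated factors, and for Cgas, whose order over the classes was opposite to theirs. Capitals mark matches on either strand to GAAANNGAAA or GAAANGAAA, which were chosen after the letters had been read.
Ddx58 (chr4:40239776-40240075, minus strand): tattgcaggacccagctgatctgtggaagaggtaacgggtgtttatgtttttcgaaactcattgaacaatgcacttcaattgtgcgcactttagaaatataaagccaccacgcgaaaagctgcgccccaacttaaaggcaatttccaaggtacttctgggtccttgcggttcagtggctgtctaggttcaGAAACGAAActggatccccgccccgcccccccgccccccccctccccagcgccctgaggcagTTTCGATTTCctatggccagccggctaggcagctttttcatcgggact
Ifih1 (chr2:62646206-62646505, minus strand): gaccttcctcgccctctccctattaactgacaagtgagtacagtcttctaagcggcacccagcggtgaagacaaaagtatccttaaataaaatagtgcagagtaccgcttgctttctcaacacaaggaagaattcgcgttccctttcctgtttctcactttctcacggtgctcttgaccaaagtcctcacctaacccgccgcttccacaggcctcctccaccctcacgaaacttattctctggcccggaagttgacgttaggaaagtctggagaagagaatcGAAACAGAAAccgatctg
Eif2ak2 (chr17:78882523-78882822, minus strand): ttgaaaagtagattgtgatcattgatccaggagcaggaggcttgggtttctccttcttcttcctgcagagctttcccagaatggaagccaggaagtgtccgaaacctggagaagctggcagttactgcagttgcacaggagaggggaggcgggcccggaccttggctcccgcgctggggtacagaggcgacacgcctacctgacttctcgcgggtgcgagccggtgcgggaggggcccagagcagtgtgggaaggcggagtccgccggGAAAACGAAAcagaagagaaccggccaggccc
Cgas (chr9:78443188-78443487, minus strand): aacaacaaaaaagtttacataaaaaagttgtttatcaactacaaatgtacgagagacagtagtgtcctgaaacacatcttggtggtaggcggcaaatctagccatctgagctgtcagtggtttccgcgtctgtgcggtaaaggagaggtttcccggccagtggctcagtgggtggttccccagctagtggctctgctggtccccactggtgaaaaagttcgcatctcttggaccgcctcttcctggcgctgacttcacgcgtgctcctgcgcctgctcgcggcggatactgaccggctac

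GAAANNGAAA was found in 3.44% of 32851 promoter windows of the same length and GAAANGAAA in 3.17%. Ddx58 held 1 match to each, the first of them on the opposite strand. Ifih1 and Eif2ak2 held 1 match each to GAAANNGAAA, in the 50 bases after the start. No match was present in the windows of Cgas and Mavs. These are matches of letters only, and no binding was measured.

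Depth differed between the libraries. The kept cells numbered 6838, 934 and 4398 in PBS replicates 1, 2 and 3, and 693 and 3959 in AML replicates 1 and 3. They carried 32123508, 10403685 and 22736647 UMIs (unique molecular identifiers, counts of captured transcripts) in PBS, and 1945659 and 27603274 in AML. A member had 21 to 73 UMIs in AML replicate 1, against 77 to 1736 in the other 4 libraries. AML replicate 1 also stood apart in its profile, with Pearson's r of 0.917 to 0.942 to the others across genes, whereas the others reached 0.972 to 0.984 among themselves, and with 14.7% of its cells in G1 phase against 49.0% to 58.2%. Libraries shared cell barcodes, and all 934 kept barcodes of PBS replicate 2 also occurred in another library, as did 258, 1854, 720 and 1730 of those of AML replicates 1 and 3 and PBS replicates 1 and 3. At most 22 kept cells of a library had more UMIs under the same barcode elsewhere. Leaving these out was tried only for AML against PBS over all LSK cells, where 0 members were called with or without them. The other comparisons were not refitted in this way. Summed LSK marker levels were 1127 to 1311 CPM (counts scaled to a common library total) in PBS and 1014 and 1149 CPM in AML. Of these 8 markers 0 were called, 2 had a positive fold change, the median was -0.28 and both AML libraries lay under PBS for 4, among them the stem cell genes Procr (log2 fold change of AML over PBS -1.63 ± 0.418, edgeR adjusted p 0.188) and Hlf (-0.66 ± 0.230, adjusted p 0.333). The authors' cluster 4 held 2.46% to 3.41% of the cells in PBS and 11.1% and 9.57% in AML replicates 1 and 3.

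The level of each gene over all LSK cells of a library is plotted first, in CPM after TMM scaling. RIG-I is the sensor of short RNA with a 5′ triphosphate. In PBS replicates 1, 2 and 3, Ddx58 stood at 25.1, 26.5 and 25 CPM, and in AML replicates 1 and 3 at 17.0 and 24.0 CPM. Both AML values lay under all PBS values, but the log2 fold change (AML over PBS) of -0.26 ± 0.224 (SE) did not pass (edgeR adjusted p 0.678). Ifih1, for the sensor of long double-stranded RNA, was at 10.6, 10.9 and 10.9 CPM in PBS and 10.8 and 12.7 CPM in AML (0.16 ± 0.227, adjusted p 0.810). Dhx58 was at 8.84, 15.1 and 6.60 CPM in PBS and 11.4 and 9.80 CPM in AML (0.05 ± 0.327, adjusted p 0.972). The AML values of Ifih1 and Dhx58 overlapped those of PBS, and for Dhx58 the PBS libraries spread more widely than the AML libraries. Mavs, the adaptor that RIG-I and MDA5 share, was at 5.45, 7.53 and 6.88 CPM in PBS and 10.8 and 6.51 CPM in AML (0.25 ± 0.299, adjusted p 0.769). Its high AML value rested on 21 UMIs.

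**Figure D1:**
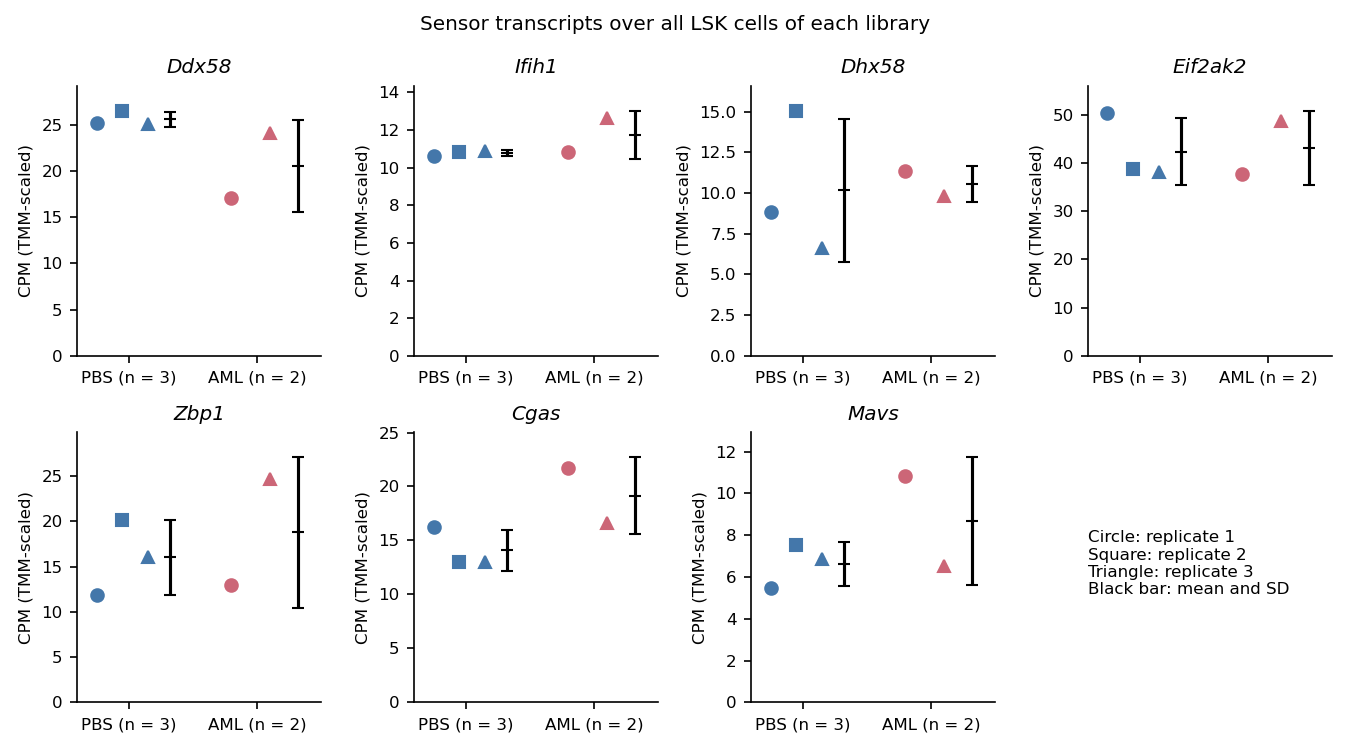
Level of each of the 7 genes (CPM after TMM scaling, linear axis from 0) over all LSK cells, with 1 point per library (3 PBS, 2 AML) and a bar for the mean and SD. The AML points lie under all PBS points for Ddx58 and above them for Cgas, and the groups overlap for the other 5 genes.

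Cgas was at 16.3, 13.0 and 13.0 CPM in PBS and at 21.7 and 16.6 CPM in AML. Both AML libraries lay above PBS, AML replicate 3 by a narrow margin, and the log2 fold change of 0.38 ± 0.233 did not pass (adjusted p 0.560). Zbp1 was at 11.8, 20.2 and 16.1 CPM in PBS and 12.9 and 24.7 CPM in AML (0.35 ± 0.284, adjusted p 0.650). The AML libraries of Zbp1 differed from each other by more than the PBS libraries did, with replicate 3 high and replicate 1 near the lowest PBS value. Eif2ak2 was at 50.3, 38.7 and 38.1 CPM in PBS and 37.7 and 48.6 CPM in AML (0.05 ± 0.231, adjusted p 0.959).

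Thus 0 of the 7 genes were called over all LSK cells, where edgeR called 0.16% of the 14364 genes tested, and 0 of the 7 had an unadjusted p under 0.05. DESeq2 and limma-voom called 0 of the 7 as well. The fold change was positive for 6 of the 7, with a median of 0.16 against -0.03 over all genes tested, of which 47.0% were positive. Groups did not overlap for 2 of the 7 genes, and for 32% of all genes. Without AML replicate 1 the log2 fold change was -0.07 for Ddx58, 0.25 for Ifih1, -0.01 for Dhx58, 0.01 for Mavs, 0.25 for Cgas, 0.65 for Zbp1 and 0.21 for Eif2ak2. Without AML replicate 3 the value for Zbp1 was -0.29, so that AML replicate 3 sets its direction. Without cluster 4 the value for Ddx58 was -0.13.

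In G1 cells alone, the log2 fold change of Ddx58 was 0.29 (adjusted p 0.936), opposite in sign to that over all cells, and neither value passed. By phase, Ddx58 was higher in G1 cells than in S or G2M cells in all 5 libraries, at 31.3 to 50.7 CPM (plain library totals) in G1, 9.30 to 23.8 CPM in S and 12.7 to 20.9 CPM in G2M. Cgas ran the other way and was highest in S phase in all 5 libraries, at 20.2 to 30.8 CPM, against 5.03 to 14.5 CPM in G1 and 11.9 to 18.5 CPM in G2M. Ifih1, Dhx58, Eif2ak2 and Zbp1 were also highest in G1 in all 5 libraries, while Mavs had no common order (G1 highest in 2, G2M in 2 and S in 1). Phases were assigned by the authors from expression of the same cells, and these levels are given as a description.

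**Figure D2:**
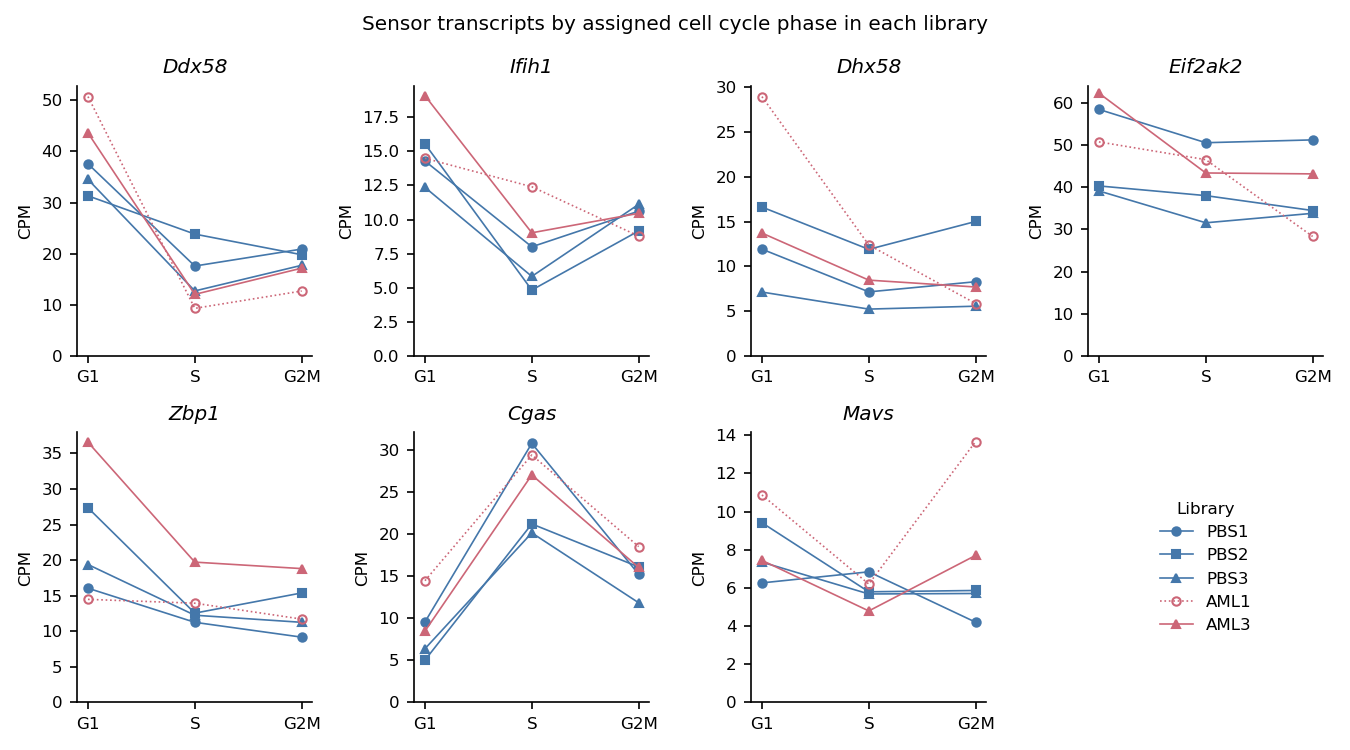
Level of each gene (CPM of the plain total, linear axis from 0) in cells assigned to G1, S and G2M, with 1 line per library. Ddx58 falls from G1 to S and Cgas rises from G1 to S in each of the 5 libraries, and the AML replicate 1 points in G1 rest on 3 to 14 UMIs per gene.

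The classes were next compared with each other, in a model with 1 term per library. The authors had assigned classes by module scores of published gene signatures, and whether a member is in a signature was not checked. The test called 6 of the 7 genes, but it also called 67.7% of the 11705 genes tested, so that a share of this kind is near the background. What differed among the members was the order of the classes.

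RIG-I and MDA5 transcripts were highest in the HSC class of the PBS mice by mean level. In PBS, Ddx58 was at 33.8 ± 3.92 CPM (SD, n = 3) in HSC, 29.5 ± 2.48 in MPP4, 22.3 ± 1.41 in MPP3 and 20.3 ± 0.902 in MPP2. Fitted over the 5 libraries, its level relative to HSC differed by -1.04 in MPP2, -1.06 in MPP3 and -0.42 in MPP4 on the log2 scale (edgeR F test, adjusted p 9.0e-08). In the PBS libraries alone the differences were smaller, at -0.82, -0.66 and -0.28 (adjusted p 2.4e-06). Without cluster 4, a setting added after the data were seen, the MPP3 value over the 5 libraries was -0.68 (adjusted p 3.0e-07). The HSC class was above MPP4 in 4 of 5 libraries, PBS replicate 2 being the exception. Ifih1 was at 15.4 ± 1.19 CPM (SD, n = 3) in HSC of PBS mice, 11.2 ± 0.725 in MPP4, 9.64 ± 1.55 in MPP2 and 7.86 ± 1.81 in MPP3, and its differences from HSC were -0.78, -0.95 and -0.52 in MPP2, MPP3 and MPP4 (adjusted p 2.4e-05). MPP2 and MPP3 did not separate, MPP2 being higher in 2 of 5 libraries. In HSC of AML replicate 1, Ifih1 had 0 UMIs in 23 cells, which allows up to 33.1 CPM on this scale and so does not set the library apart.

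Dhx58 had a looser order and a wide PBS spread. It was at 10.9 ± 5.43 CPM (SD, n = 3) in HSC and 11.9 ± 4.49 in MPP4 of PBS mice, with 9.16 ± 5.0 in MPP2 and 6.69 ± 3.81 in MPP3. It was called over the 5 libraries (adjusted p 0.0112, -0.51 in MPP2 and -0.60 in MPP3 relative to HSC) but not in the PBS libraries alone (adjusted p 0.184) or without AML replicate 3 (0.138). Its MPP3 value in PBS replicate 2 rested on 1 UMI. HSC and MPP4 did not separate for Dhx58, HSC being higher in 3 of 5 libraries.

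Eif2ak2 was at 48.3 ± 7.31 CPM (SD, n = 3) in MPP4, 47.0 ± 9.98 in HSC, 39.4 ± 8.28 in MPP2 and 37.1 ± 4.73 in MPP3 of PBS mice. The fitted differences from HSC were small, at -0.34 in MPP2, -0.39 in MPP3 and -0.05 in MPP4 (adjusted p 0.00022). Zbp1 was at 22.3 ± 9.89 CPM in HSC, 24.3 ± 8.46 in MPP3, 15.2 ± 4.48 in MPP4 and 12.9 ± 2.28 in MPP2 (SD, n = 3). It was called with differences from HSC of -0.76 in MPP2, -0.25 in MPP3 and -0.46 in MPP4 (adjusted p 0.00036). In the PBS libraries alone the MPP3 difference of Zbp1 was 0.16, opposite in sign. HSC and MPP3 did not separate, HSC being higher in 3 of 5 libraries. The MPP3 level of Zbp1 rested in part on cells of clusters 6, 7 and 8. Without those clusters, Zbp1 in MPP3 was at 10.97, 12.6 and 18.3 CPM in PBS replicates 1, 2 and 3, against 14.8, 31.1 and 27.1 CPM with them. Its difference from HSC was then -0.72 in MPP3 and -0.77 in MPP2 (adjusted p 5.0e-05). Without cluster 4 it was -0.05 in MPP3 (adjusted p 7.6e-05).

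Cgas had the opposite order. It was at 8.98 ± 2.90 CPM (SD, n = 3) in HSC of PBS mice, 12.1 ± 2.81 in MPP4, 17.7 ± 3.64 in MPP3 and 18.8 ± 2.55 in MPP2. The level relative to HSC was higher by 0.98 in MPP2, 0.98 in MPP3 and 0.48 in MPP4 on the log2 scale (adjusted p 1.7e-06), and HSC was the lowest class in all 3 PBS libraries and in AML replicate 3. AML replicate 1 had 0 Cgas UMIs in its HSC class, which allows up to 33.1 CPM, so that its order is not known. Mavs was at 8.33 ± 3.43 CPM in HSC, 7.12 ± 0.953 in MPP4, 5.76 ± 0.969 in MPP2 and 5.24 ± 4.72 in MPP3 (SD, n = 3), and did not pass (adjusted p 0.427). The MPP3 mean includes 0 UMIs in the 41 cells of PBS replicate 2, which allows up to 7.18 CPM, so that the place of MPP3 in the order is not known. It was called with plain library sizes (adjusted p 0.0277), which moved the median of all genes by -0.26 in MPP2, -0.34 in MPP3 and -0.07 in MPP4. The direction of the other 6 genes in MPP2 was the same under both scalings.

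**Figure D3:**
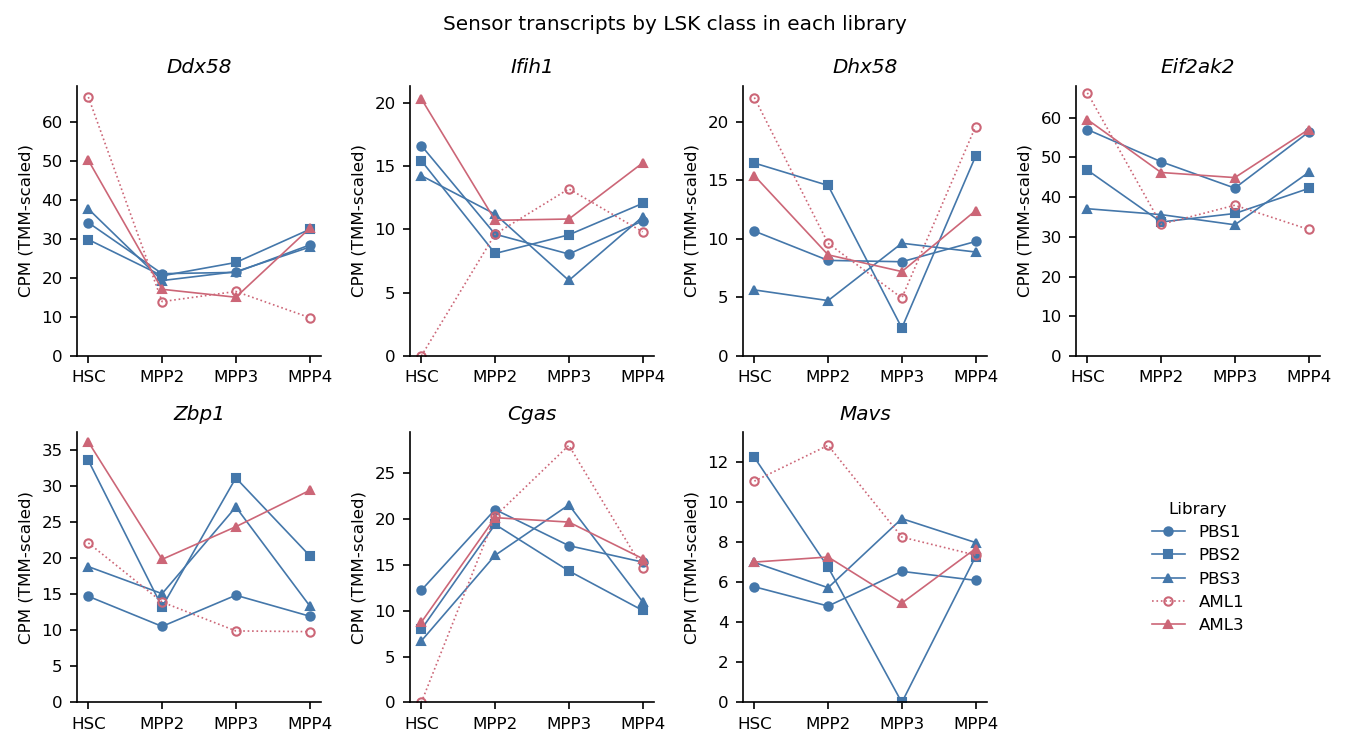
Level of each gene (CPM after TMM scaling over all library-by-class sums, linear axis from 0) in the HSC, MPP2, MPP3 and MPP4 classes, with 1 line per library. Cgas is lowest in HSC in the 3 PBS libraries and AML replicate 3 (AML replicate 1 has 0 UMIs there, which allows up to 33.1 CPM), and Ddx58 is lower in MPP2 and MPP3 than in HSC in all 5. The AML replicate 1 points in HSC rest on 23 cells.

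Cell cycle phase moved with the classes. In G1 were 84.1% to 87.9% of the HSC-class cells of the 3 PBS libraries, against 6.06% to 12.9% in MPP2, 55.5% to 58.5% in MPP3 and 71.7% to 75.9% in MPP4. With G1 cells alone, 2 of the 7 genes were called between classes, where 36.4% of 10279 genes were called. They were Ifih1 (adjusted p 0.0265, with -0.06 in MPP2, -0.70 in MPP3 and -0.38 in MPP4 relative to HSC) and Zbp1 (adjusted p 0.000129). For Zbp1 in G1 cells, the value relative to HSC was -0.64 in MPP2, 0.46 in MPP3 and -0.40 in MPP4, with the cells of clusters 6, 7 and 8 included. Ddx58 had -0.46, -0.41 and -0.28 in MPP2, MPP3 and MPP4 (adjusted p 0.102) and Cgas 0.57, 0.06 and 0.31 (adjusted p 0.446). The G1 sums hold fewer cells, and HSC of AML replicate 1 and MPP2 of PBS replicate 2 fell under the minimum of 20.

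Across the 9 clusters the levels are given as a description, pooled over the 5 libraries in CPM of the plain total with exact Poisson 95% intervals, which cover counting error only. Ddx58 was at 33.7 CPM (31.6 to 35.8) in cluster 0, 30.8 (28.4 to 33.4) in cluster 2 and 21.3 (19.4 to 23.3) in cluster 1. It was lowest in cluster 4, at 5.02 CPM (3.54 to 6.92), a cluster that holds 564 MPP3-class and 217 MPP2-class cells. Ifih1 was lower in cluster 4 (5.57 CPM, 3.99 to 7.55) than in cluster 0 (16.6, 15.1 to 18.1) but near cluster 3 (6.38, 5.05 to 7.95). Dhx58 was at 4.48 CPM (3.08 to 6.29) in cluster 4 against 14.6 (13.0 to 16.4) in cluster 2. Eif2ak2 was at 32.9 CPM (28.8 to 37.3) in cluster 4, under clusters 0 (53.5, 50.9 to 56.2), 1 (39.2, 36.6 to 41.9) and 2 (58.0, 54.6 to 61.5) and near cluster 3 (35.9, 32.7 to 39.4). Cgas had no such low value in cluster 4, at 18.7 CPM (15.7 to 22.1) there and 14.7 to 18.7 CPM in clusters 0 to 3.

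In cluster 6, which holds 172 MPP3-class cells, Zbp1 was at 40.5 CPM (31.8 to 50.7) and at 64.8 CPM (44.6 to 91.0) in cluster 8, which holds 72 MPP3-class cells, against 10.5 to 25.6 CPM in clusters 0 to 4. In cluster 8, AML replicate 3 gave 22 of the 33 UMIs, and without it the pooled value was 39.2 CPM (38.6 CPM in cluster 6). In cluster 6 Ddx58 was at 15.1 CPM (10.0 to 21.8), Eif2ak2 at 9.71 CPM (5.76 to 15.4), Ifih1 at 1.62 CPM (0.334 to 4.73), Dhx58 at 1.08 CPM (0.131 to 3.90), Mavs at 2.70 CPM (0.876 to 6.30) and Cgas at 0.540 CPM (0.0137 to 3.01). The Cgas value rests on 1 UMI and that of Ifih1 on 3 UMIs.

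**Figure D4:**
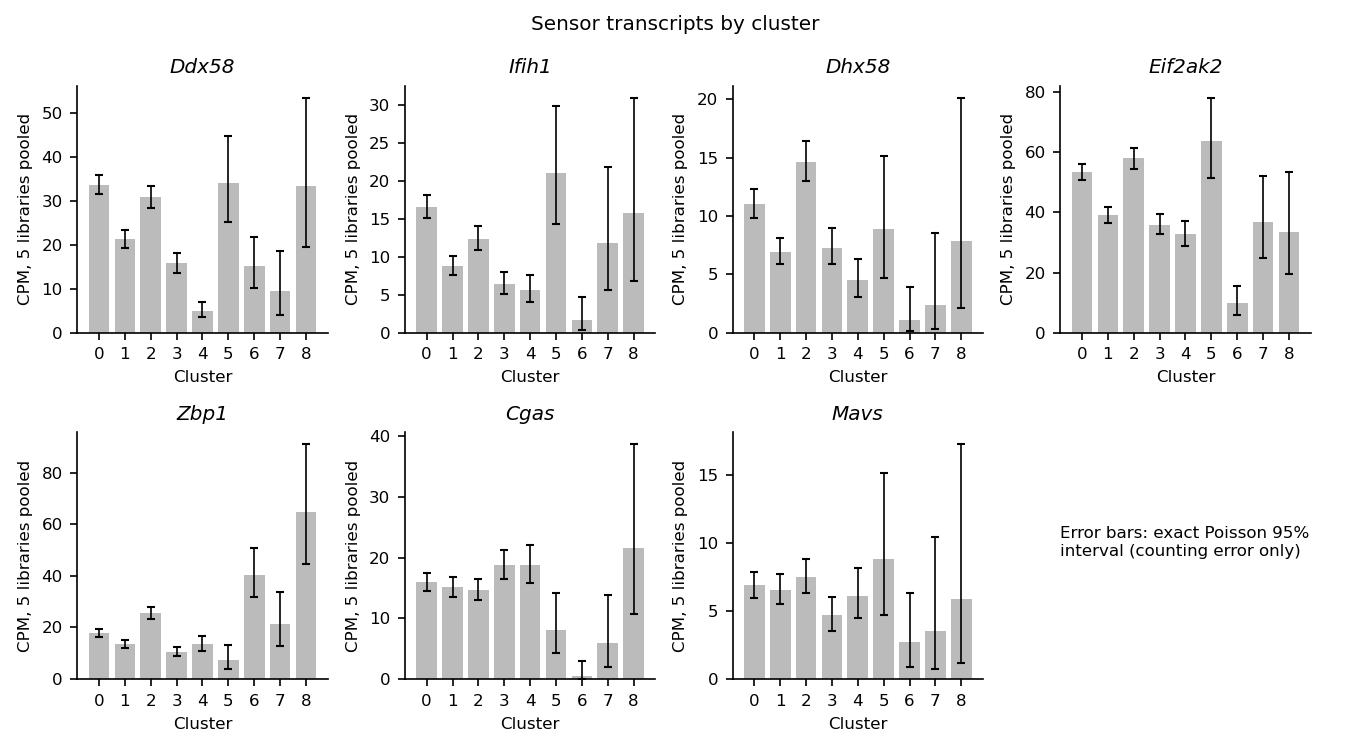
Pooled level of each gene (CPM of the plain total, linear axis from 0) in clusters 0 to 8, with exact Poisson 95% intervals as error bars. Ddx58, Ifih1 and Dhx58 are low in cluster 4 (Ifih1 about as low in cluster 3), and Zbp1 is high in clusters 6 and 8.

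AML and PBS were then compared within each class. Of the 7 genes, 0 were called in any class, where edgeR called 0.178% of all genes in HSC, 0.0399% in MPP2, 0.0486% in MPP3 and 0.0325% in MPP4. Unadjusted p under 0.05 was reached by 2 genes in HSC (Ddx58 and Zbp1), 1 in MPP4 (Zbp1) and 0 in MPP2 and MPP3, and by 4.16%, 5.93%, 7.56% and 7.39% of all genes in HSC, MPP4, MPP2 and MPP3. DESeq2 also called 0 of the 7 in HSC, MPP2 and MPP4, and in MPP3 it gave an adjusted p for Eif2ak2 alone, which was not called. Plain library sizes moved the median fold change of all genes by 0.15 in HSC and 0.12 in MPP3.

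In the HSC class, Ddx58 was at 34.1, 29.8 and 37.6 CPM in PBS and at 66.3 and 50.1 CPM in AML replicates 1 and 3. Both AML values lay above PBS, that of replicate 1 on 6 UMIs, and the log2 fold change was 0.64 ± 0.282 (SE), with an adjusted p of 0.992. Zbp1 was at 14.7, 33.5 and 18.8 CPM in PBS HSC and 22.1 and 36.1 CPM in AML HSC (0.76 ± 0.30, adjusted p 0.992), and the groups overlapped. Eif2ak2 was at 57.0, 46.8 and 37.1 CPM in PBS HSC and 66.3 and 59.5 CPM in AML HSC (0.39 ± 0.279, adjusted p 0.992). Groups in HSC did not overlap for 2 of the 7 genes (Ddx58 and Eif2ak2) and for 27.4% of all genes. Without AML replicate 1 the values were 0.59 for Ddx58 and 0.81 for Zbp1. Zbp1 in HSC was at 0.09 without AML replicate 3, at 0.47 without PBS replicate 1 and at 1.1 without PBS replicate 2 (adjusted p 0.234), and it was not called with any single library left out.

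In MPP3, Ddx58 was at 21.4, 23.9 and 21.6 CPM in PBS and at 16.5 and 15.03 CPM in AML, both under PBS (-0.54 ± 0.330, adjusted p 0.787). In MPP2 it was at 21.1, 20.5 and 19.3 CPM in PBS and 13.9 and 17.1 CPM in AML (-0.30 ± 0.254, adjusted p 0.754). The share of cluster 4 in both classes was higher in each AML library than in each PBS library, which was not tested. Cluster 4, where Ddx58 was lowest, gave 13.9%, 24.4% and 21.3% of the MPP3-class cells in PBS and 25.9% and 33.3% in AML, and 1.52% to 3.79% of the MPP2-class cells in PBS and 5.54% and 7.22% in AML. Without cluster 4, Ddx58 in MPP3 was at 24.5, 39.5 and 26.6 CPM in PBS and 22.1 and 21.1 CPM in AML, still under PBS, and the fold change was -0.37 in MPP3 (adjusted p 0.928) and -0.22 in MPP2 (adjusted p 0.814). With the scaling of each class on its own, groups did not overlap for 3 of the 7 genes in MPP2 (Ddx58, Zbp1 and Mavs, against 29% of all genes), for 1 in MPP3 (Ddx58, against 24.7%) and for 1 in MPP4 (Cgas, against 27.8%). On the scale common to all classes, Zbp1 in MPP2 and Cgas in MPP4 overlapped, while Ifih1 in MPP3 did not, with 8.05, 9.57 and 5.96 CPM in PBS and 13.2 and 10.8 CPM in AML. Zbp1 in MPP4 was at 11.9, 20.3 and 13.4 CPM in PBS and 9.81 and 29.4 CPM in AML (0.75 ± 0.30, adjusted p 0.734). AML replicate 3 was high and AML replicate 1, with 4 UMIs, low, and without AML replicate 3 the value was -0.55. Zbp1 in MPP3 changed sign when clusters 6, 7 and 8 were left out, from -0.20 to 0.30.

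**Figure D5:**
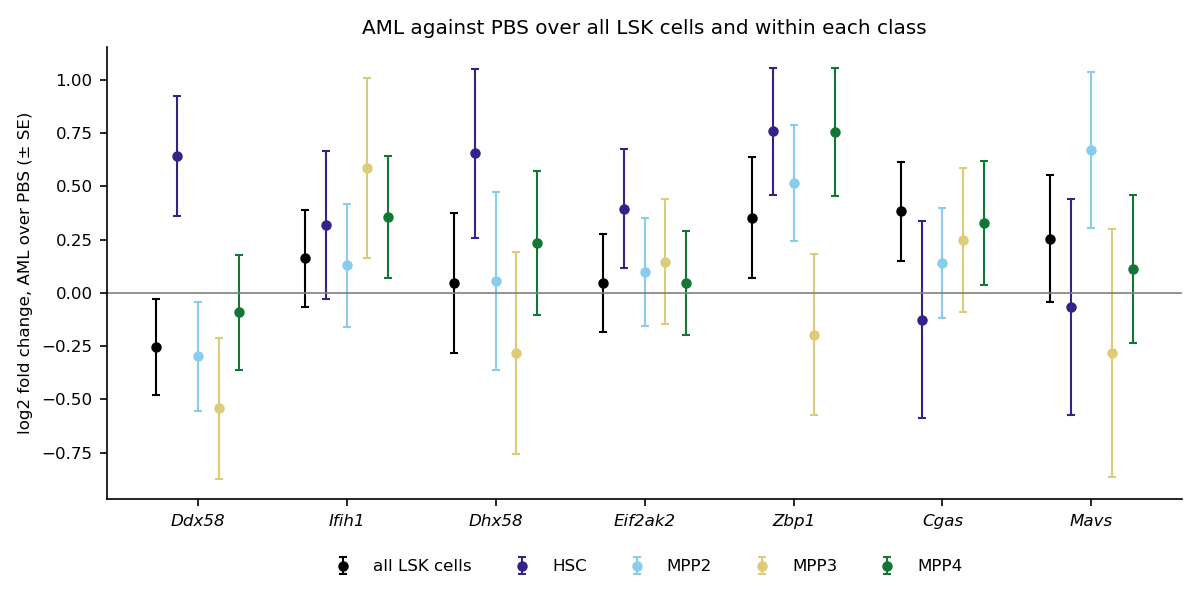
Log2 fold change of AML over PBS (± SE, edgeR) for each gene over all LSK cells and within each class. Ddx58 is above 0 in HSC (0.64) and under 0 in MPP3 (-0.54), and none of the 35 values passed the adjusted threshold.

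Whether the AML effect itself differed between classes was tested with class-by-treatment terms. Ddx58 was called (edgeR F test, adjusted p 0.0459), 1 of the 7 genes, where 0.872% of the 12734 genes tested were called. Its AML effect relative to that in HSC was -0.84 in MPP2, -1.13 in MPP3 and -0.47 in MPP4 on the log2 scale. The call was lost without PBS replicate 1 (adjusted p 0.492) or PBS replicate 3 (0.139), with MPP3 terms of -1.13 and -1.21. It held without PBS replicate 2 (0.0474). Without AML replicate 1 or 3 the MPP3 term was -1.14 or -1.31, but these fits keep 1 AML library and cannot show the spread between AML libraries. The HSC value of AML replicate 1 rested on 6 Ddx58 UMIs in 23 cells. In G1 cells alone, a setting added after the data were seen, the terms were -0.67 in MPP2, -0.55 in MPP3 and -0.46 in MPP4, and Ddx58 did not pass (adjusted p 1). The G1 fit had no HSC sum of AML replicate 1, which held 13 G1 cells, so that its AML value in HSC came from AML replicate 3 alone. Without cluster 4, also added then, the terms were -0.71, -0.84 and -0.44, and the call was lost (adjusted p 0.30). The share of MPP3-class cells in G1 was 55.5% to 58.5% in PBS and 13.6% and 40.9% in AML replicates 1 and 3. The G1 fit also changed the set of sums, and the part of phase alone in this result was not tested. Zbp1 came next (adjusted p 0.20, MPP3 term -0.82), and the other 5 genes had adjusted p of at least 0.634.

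Within clusters 0 to 4, the ones with at least 20 cells in 3 PBS and 2 AML libraries, 0 members were called. The background was 0.0407%, 0.155%, 0.199%, 0.156% and 0.522% of all genes in clusters 0, 1, 2, 3 and 4. Of 32 tests of a member in a cluster, 25 had a positive fold change and 2 an unadjusted p under 0.05, both of Zbp1 (clusters 1 and 3, where 7.67% and 4.2% of all genes had one). The lowest adjusted p was 0.504. In cluster 3, Zbp1 was at 7.25, 7.49 and 7.77 CPM in PBS and 12.0 and 17.1 CPM in AML, the value of AML replicate 1 resting on 2 UMIs. Ddx58, Ifih1 and Dhx58 were under the filter on low counts in cluster 4.

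Barcodes outside the cell table, which are the only ones of AML replicate 2, were summed for all 6 libraries in a comparison added after the data were seen. Of the 7 genes, 0 were called there, where edgeR called 0.00819% of 12204 genes, and 2 (Ifih1 and Ddx58) had an unadjusted p under 0.05, as did 26.9% of all genes there. The groups did not overlap for the same 2 of the 7 genes and for 32.4% of all genes, so that both shares are near the background.

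The rest of the pathway was followed in lists written with earlier results of these data known. Of 20 genes of RIG-I-like receptor signaling, all tested, 0 were called, 13 had a positive fold change and the median was 0.18. Dhx15, a helicase that can act with MAVS, was at 0.65 ± 0.253 (adjusted p 0.405), and Traf3, an adaptor of the pathway, at 0.55 ± 0.227 (adjusted p 0.421). Of 13 tested genes of DNA sensing 0 were called (median 0.09). Ifi204, of the PYHIN family and with near-identical relatives that can share reads, was at 1.79 ± 0.485 (adjusted p 0.208), and Ifi205 of the same family at 0.92 ± 0.768 (adjusted p 0.664). The Ifi205 value rested on few counts, with 1.04, 0 and 0.81 CPM in PBS and 0 and 1.70 CPM in AML replicates 1 and 3. Of 11 tested genes around PKR and eIF2 alpha 0 were called (median -0.02). Ppp1r15a, a subunit of an eIF2 alpha phosphatase, was at -0.97 ± 0.289 (adjusted p 0.262) and Adar, which edits double-stranded RNA, at 0.75 ± 0.225 (adjusted p 0.264).

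Of 10 genes of ZBP1-linked cell death 0 were called (median -0.10), with Casp6 at -0.51 ± 0.242 (adjusted p 0.477) and Fadd at -0.33 ± 0.225 (adjusted p 0.599). Of 6 tested endosomal sensors and their partners 0 were called (median 0.09), with Unc93b1, a chaperone of endosomal Toll-like receptors, at 0.60 ± 0.242 (adjusted p 0.416) and the adaptor Myd88 at -0.43 ± 0.262 (adjusted p 0.560). Of 13 tested interferon-stimulated genes 0 were called, 11 had a positive fold change and 8 an unadjusted p under 0.05 with higher values in AML (10.5% of all genes had an unadjusted p under 0.05 in either direction), and the median was 0.53. Oas2, which makes the activator of RNase L, was at 1.28 ± 0.262 (adjusted p 0.0793) and Isg15, a ubiquitin-like modifier, at 1.16 ± 0.238 (adjusted p 0.0803). Of the 4 interferon genes listed, 3 had 0 UMIs in all 5 libraries and none passed the filter on low counts.

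Some markers of other cells differed between the groups. Summed neutrophil markers were 116 to 227 CPM in PBS and 551 and 347 CPM in AML replicates 1 and 3, but 0 of 6 tested were called, 2 were positive and the median fold change was -0.74. Mpo (1.67, adjusted p 0.0533) and Elane (1.21, adjusted p 0.389), granule proteins also made by myeloid progenitors, carried the sum, while S100a8 (-1.62), S100a9 (-1.91), Ngp (-1.09) and Camp (-0.39), of more mature neutrophils, were negative. The negative genes were at 5.83 CPM or less in each library and highest in PBS replicate 1. For S100a9, Ngp and Camp the groups overlapped. Plasmacytoid dendritic markers were 357 to 405 CPM in PBS and 619 and 631 CPM in AML. Of 5 tested, 4 were positive, the median was 0.52 and Irf8 was called (2.17 ± 0.333, adjusted p 0.0183). Cox6a2 (0.89), Bst2 (0.52) and Tcf4 (0.42) were positive and Ccr9 (-0.29) negative, none of them called. Bst2, also listed among the interferon-stimulated genes, had the highest level, at 221 to 244 CPM in PBS and 313 and 344 CPM in AML. Of 6 tested monocyte markers Ly6c2 was called (1.69 ± 0.269, adjusted p 0.0183). The other monocyte markers diverged, with Ccr2 at 2.01, Csf1r at 2.11, Cd68 at 0.28, Lyz2 at -0.91 and Mrc1 at -0.56, none of them called. Monocyte sums were 86.3 to 146 CPM in PBS and 81.7 and 107 CPM in AML. Erythroid sums were 45.7 to 378 CPM in PBS and 27.8 and 156 CPM in AML, mast and basophil sums 19.99 to 60.1 CPM and 16.4 and 39.8 CPM, B lineage sums 74.9 to 85.6 CPM and 48.8 and 86.0 CPM, and T and NK sums 155 to 182 CPM and 187 and 189 CPM. Each of the marker lists had all its genes detected in at least 1 library. The part of these cells in the member values was not tested.

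Genes with the pattern most like that of each member were sought over 19 library-by-class sums, by Pearson's r of log2 CPM among 6294 genes. The sums share libraries, so that r is a description. Ddx58 was most like Neurl3 (0.891), Etnk1 (0.884) and Trim12a (0.884), and Ifih1 most like Ifi44 (0.818), Tmem164 (0.808) and Adamts6 (0.798). Dhx58 was most like Epsti1 (0.817), Samd9l (0.805) and Edc3 (0.778), and Eif2ak2 most like Nr3c1 (0.879), Slc25a36 (0.866) and Trim44 (0.841). Zbp1 was most like Ly6a (0.818), which encodes Sca1, Clec2d (0.815) and Isg20 (0.767). Cgas was most like Mrpl19 (0.951), Lyar (0.929) and Kmt5a (0.922), and Mavs most like Agap1 (0.952), Tmem181a (0.947) and Arhgap21 (0.932). Among the members themselves, r was 0.59 for Ddx58 with Ifih1, 0.63 for Ddx58 with Eif2ak2 and 0.64 for Ifih1 with Eif2ak2, and it was -0.70 for Ddx58 with Cgas and -0.59 for Ifih1 with Cgas. Dhx58, of the same helicase family, had r of 0.10 with Ddx58 and 0.17 with Ifih1. With Mavs its r was 0.65, the highest among the members. The sums include MPP3 of PBS replicate 2, which held 1 UMI of Dhx58 and 0 of Mavs.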

How the data were processed

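HSPCs sorted as LSK cells were profiled with 10x Genomics Chromium GEM V3 chemistry. Per the labels, the submitters' processing notes name Cell Ranger 7.0.1, R 4.2.2, Seurat 4.3.0 and the build GRCm38/mm10. Each library was deposited as a matrix of raw UMI counts. The authors' deposited cell table gives class, cluster and phase for each cell, and a percent of mitochondrial UMIs, which was not used in tests. How doublets and low-quality cells were removed is not given in those sources.

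UMI counts of table cells were summed per library, and per library and class or cluster where at least 20 cells were present. Sums were tested with edgeR 4.0.16 in R 4.3.3 (TMM scaling, filterByExpr by group, quasi-likelihood F test, Benjamini-Hochberg adjustment over all genes, threshold 0.05), with positive values meaning higher in AML. Planned fits of 3 against 3 libraries became 3 against 2. Classes were compared with library terms, HSC as reference. DESeq2 1.42.0 and limma 3.58.1 (voom) were alternatives. The labels tie no library to a mouse, so p-values measure the spread between libraries, which may be technical. The fits were tested on simulated data. Intervals and limits (3 counts for a count of 0) cover counting error only.

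The members, the lists and the rule for naming genes were chosen with earlier results of these data known. Named were the 7 members throughout, of each list the called genes or otherwise the 2 with the lowest p, and for each member the 3 genes with the highest r, among genes with mean log2 CPM of at least 4 (prior count 2, sums of at least 200000 UMIs). Marker lists are given as sums with the called genes. The neutrophil, monocyte and plasmacytoid dendritic markers that were not called were named after their values were seen. Coordinates come from GENCODE M21 and promoters from RefSeq, both of GRCm38.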

Additional observations from a re-analysis of the deposited data

Results flagged for a closer look

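The AML effect on Ddx58 differed between the classes in the test of the class-by-treatment terms (edgeR F test, adjusted p 0.0459), with a fold change above 0 in HSC and under 0 in MPP2 and MPP3. In MPP4 it was -0.09, and 0.13 without AML replicate 1, which has 4 UMIs there. The adjusted p no longer passed when PBS replicate 1 (MPP3 term -1.13) or 3 (-1.21) was left out. Without AML replicate 1 or 3 the MPP3 term was -1.14 or -1.31, with 1 AML library left, which cannot show the spread between AML libraries. In HSC, the value of AML replicate 1 rested on 6 Ddx58 UMIs in 23 cells. The test did not pass either without the cells of cluster 4 (adjusted p 0.30, MPP3 term -0.84), in which Ddx58 was lowest and which made up 13.9% to 24.4% of the MPP3-class cells in PBS and 25.9% and 33.3% in AML. In G1 cells alone the MPP3 term was -0.55 and Ddx58 was not called. That fit had no HSC sum of AML replicate 1, which held 13 G1 cells.

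Barcodes outside the authors' cell table held values of some members in some AML libraries above all 3 PBS libraries, counted in the same way. These are 8088, 17055 and 1628 barcodes of AML replicates 1, 2 and 3, with medians of 944, 320 and 3748.5 UMIs, and 2763, 322 and 1832 barcodes of the PBS libraries, with medians of 3194, 8396.5 and 3857.5 UMIs. All barcodes of AML replicate 2 are of this kind. Of its 17055 barcodes, 6900 also occurred in another library, 1223 of them among the 1256 barcodes of PBS replicate 2, and 106 passed a filter of at least 1000 genes and at most 10% mitochondrial UMIs. The part of shared barcodes in its values was not tested. Ddx58 was at 36.0, 52.0 and 34.1 CPM of the plain total in AML replicates 1, 2 and 3, against 25.2, 26.6 and 21.1 CPM in PBS. Ifih1 was at 13.5, 20.9 and 16.0 CPM, against 9.12, 6.04 and 9.38 CPM in PBS. For these 2 genes all 3 AML libraries lay above PBS, where groups did not overlap for 32.4% of all genes. Eif2ak2 was above PBS in AML replicates 2 and 3 (51.6 and 58.7 CPM), Zbp1 in AML replicates 2 and 3 (22.6 and 31.8 CPM), and Cgas in AML replicates 1 and 2 (21.2 and 28.9 CPM). Dhx58 (20.7 CPM) and Mavs (12.7 CPM) were above PBS in AML replicate 2 alone. Mavs in AML replicates 1 and 3 (5.35 and 5.23 CPM) lay under the PBS values of 6.60, 9.66 and 5.85 CPM. An edgeR fit of these sums, added after the data were seen, called 0 of the 7 genes, with 0.00819% of 12204 genes called and 2 members and 26.9% of all genes at an unadjusted p under 0.05. It gave 0.81 ± 0.268 for Ifih1 (adjusted p 0.113) and 0.56 ± 0.226 for Ddx58 (adjusted p 0.150). Neutrophil marker sums in these barcodes were 77.2 to 89.9 CPM in PBS and 216, 459 and 98.6 CPM in AML replicates 1, 2 and 3, and LSK marker sums were 1172 to 1252 CPM in PBS and 1295 to 1508 CPM in AML. Plasmacytoid dendritic marker sums were 318 to 350 CPM in PBS and 534, 621 and 518 CPM in AML replicates 1, 2 and 3. The monocyte, B lineage, T and NK, erythroid, and mast and basophil sums overlapped between the groups. The part of such cells in the member values was not tested. No group had the 4 samples needed to look for a single library far from the others.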

How the results depend on the processing

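Of 427 alternative fold changes over 35 comparisons of a member with PBS, 393 kept their direction, 34 reversed and 0 were called (lowest adjusted p 0.20). The number of members with a different AML effect between classes was 0 to 1 when single libraries were left out and 0 in G1 cells alone and without cluster 4, and the number that differed in level between classes was 2 in G1 cells alone. The cause of these changes was not tested.

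Over all LSK cells, the log2 fold change reversed to 0.0147 for Ddx58 and -0.0294 for Dhx58 with an own filter on the barcodes of 6 libraries, to 0.29 for Ddx58 and -0.0527 for Mavs in G1 cells, and to 0.0218 for Ddx58 with cells thinned to 2000 UMIs. Plain library sizes gave 0.0757 for Mavs in HSC, DESeq2 gave 0.0152 for Mavs in MPP3, and leaving out clusters 6, 7 and 8 gave 0.30 for Zbp1 in MPP3. The MPP3 term of Eif2ak2 was 0.0733 in G1 cells. With replicate number as a block, the fold change was -0.0091 for Eif2ak2 over all LSK cells, 0.22 for Cgas and 0.0861 for Mavs in HSC, and -0.0614 for Eif2ak2 in MPP4. The labels give no link between samples of the same number, and the correlation of their deviations (r of -0.06 and -0.05) rests on 2 pairs whose AML deviations mirror each other, so that it decides nothing. The numbers were not taken as pairs. The block called 91 genes in place of 23 over all LSK cells, and 0 members.

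With single libraries left out, ranges that crossed 0 over all LSK cells were -0.17 to 0.43 for Dhx58, -0.17 to 0.21 for Eif2ak2 and -0.29 to 0.65 for Zbp1. In HSC they were -8.47 to 0.43 for Ifih1, -7.73 to 0.21 for Cgas and -0.32 to 0.53 for Mavs. The values of -8.47 and -7.73 came from leaving out AML replicate 3, which leaves AML replicate 1 with 0 UMIs of either gene, and are no measure of size. In MPP2 they were -0.26 to 0.51 for Dhx58 and -0.13 to 0.29 for Eif2ak2, and in MPP3 -1.07 to 0.0771 for Zbp1 and -0.50 to 0.38 for Mavs. In MPP4 they were -1.54 to 0.13 for Ddx58, -0.14 to 0.43 for Ifih1, -0.56 to 0.22 for Eif2ak2, -0.55 to 0.99 for Zbp1 and -0.0129 to 0.22 for Mavs. The MPP3 term of Cgas ranged from -0.30 to 8.99, the upper value again being set against 0 UMIs in HSC of AML replicate 1 and no measure of size.

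The count of all genes called was 23 over all LSK cells (2 to 419 over the alternatives), 19 in HSC (0 to 29), 5 in MPP2 (0 to 156), 5 in MPP3 (2 to 166), 4 in MPP4 (0 to 75), 111 for the difference of the AML effect (26 to 506) and 7927 between classes (3742 to 8961). Depth limits AML replicate 1, where a member had 21 to 73 UMIs in all.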
